A study of Mus musculus with 12 samples.

Results

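The 10 genes described here make up the core of the circadian clock: Arntl, Clock, Per1, Per2, Per3, Cry1, Nr1d1, Nr1d2, Dbp and Tef. They were taken from the count table by gene symbol. Each symbol named 1 row, so the set holds 10 of the 52550 genes in the table. All 10 passed the filter on low counts, which left 15885 protein-coding genes for testing. The lowest count of any of them in any library was 144, for Nr1d1, and the highest was 10706, for Per1.

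The mammalian clock is a feedback loop of transcription. ARNTL (also called BMAL1) and CLOCK form a dimer that binds E-box sequences and switches on the Per and Cry genes, whose proteins then return to the nucleus and hold the dimer back. In a second loop the same dimer drives Nr1d1 and Nr1d2, which encode the repressors REV-ERBα and REV-ERBβ and act on Arntl through ROR elements, and Dbp and Tef, which encode PAR bZIP activators that bind D-boxes. The lung keeps such a clock, and Per1 is also a textbook target of the glucocorticoid receptor.

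The libraries came from whole lungs of C57BL/6J mouse pups on postnatal day 5, with 3 mice in each of 4 groups. Wild-type (WT, Adm+/+) mice received PBS (replicates 3, 4 and 5) or LPS (replicates 9, 10 and 11), and Adm+/- mice received PBS (replicates 6, 7 and 8) or LPS (replicates 1, 2 and 12). LPS was Escherichia coli O55:B5 endotoxin, injected intraperitoneally at 6 mg/kg on each of 3 days from postnatal day 3, and PBS was given in the same volume. Lungs were removed 6 h after the last dose. Adm+/- mice carry 1 functional copy of adrenomedullin, a vasoactive and angiogenic peptide, in every cell, from a line made on 129/SvEv and then backcrossed to C57BL/6J; mice without any copy die as embryos, so the groups compare a reduced dose of the gene and not its absence. The hour of the day at which lungs were removed is not given in the sources used here, so the levels are those of 1 unknown clock time per mouse. A difference between groups in that hour, if there was one, cannot be told apart from an effect of treatment or genotype. The paper places mouse Adm on chromosome 7, where the members Arntl and Dbp also lie. Whether Adm+/- mice kept 129/SvEv sequence at these genes was not tested. A strain difference there, if there was one, cannot be told apart from an effect of genotype. The study asked how the lung responds to LPS in each genotype, and the same comparisons are made here for the clock genes.

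Library totals ran from 22382535 to 38062873 counts with a median of 28494877. Adm itself was low, at 3.96 to 7.09 CPM (counts relative to the TMM-normalised library size) in WT PBS, 4.46 to 8.15 in WT LPS, 2.87 to 4.58 in Adm+/- PBS and 3.74 to 6.28 in Adm+/- LPS. Its Adm+/- against WT log2 fold change was -0.50 ± 0.32 (SE, adjusted p = 0.999) in PBS and -0.55 ± 0.31 (adjusted p = 0.480) in LPS, with overlapping ranges. All 16 of the lung marker genes were tested and none was at 0 in any library. The library WT PBS 4 stood apart from the other WT PBS libraries in several members and is named below beside values that it moved. WT PBS 5 and Adm+/- PBS 6 had low protein-coding shares, 77.8% and 80.1% of counts, against 84.3% to 87.6% in the other libraries. In bulk tissue, a change in the RNA per cell and a change in the number of cells that carry the RNA cannot be told apart.

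The sequences that the clock proteins read were sought in the promoter windows of the members. RefSeq promoter windows (GRCm38.p6, 250 bases before to 50 bases after each annotated start) were on hand for 9 of the 10 members, and Per2 was not among them. The E-box searched was CACGTG, which reads the same on both strands, the D-box was TTATGTAA or TTACGTAA, and the ROR element was searched by its consensus, the last of these on both strands as well. The E-box stood in the windows of 3 of 9 members, Per1, Cry1 and Tef, against 8.09% of 27025 genes. The D-box stood in the window of Per3, in 2 copies, against 1.23% of genes, and the ROR element in the window of Arntl, against 0.459%. A cAMP response element (TGACGTCA) or a full palindromic glucocorticoid response element was in the windows of 0 of 9 members, against 2.03% and 0.0111% of genes. These are matches of letters and were not tested as binding sites. An element outside the window, or one that departs from the letters searched, was not counted, so a gene without a match may still hold one.

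The stretches that hold the matches are printed 5′ to 3′ on the strand of the gene, with the element in capitals. The Per1 stretch (chr11:69098723-69098848, plus strand) lies in a Per1 intron upstream of an inner start, the Cry1 stretch (chr10:85185065-85185174, minus strand) is upstream of the gene, and the Per3 stretch (chr4:151044756-151044915, minus strand) is upstream of Per3 and inside an intron of Camta1. Of the Tef stretches, the first (chr15:81802534-81802563, plus strand) is in an exon of Tef and of Gm17597 on the other strand, and the second (chr15:81811216-81811341, plus strand) is in a Tef intron before an inner start. The Arntl site (chr7:113207528-113207556, plus strand) is in an exon of Arntl, just after the annotated start.
Per1 E-box: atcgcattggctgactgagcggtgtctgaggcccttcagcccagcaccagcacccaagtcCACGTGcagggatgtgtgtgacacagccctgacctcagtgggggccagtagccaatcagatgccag
Cry1 E-box: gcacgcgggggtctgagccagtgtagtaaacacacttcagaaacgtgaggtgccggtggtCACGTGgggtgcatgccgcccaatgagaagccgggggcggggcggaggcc
Tef E-box, first: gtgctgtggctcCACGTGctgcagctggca
Tef E-box, second: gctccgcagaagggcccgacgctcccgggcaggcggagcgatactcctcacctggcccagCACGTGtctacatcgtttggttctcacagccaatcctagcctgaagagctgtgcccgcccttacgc
Per3 D-boxes: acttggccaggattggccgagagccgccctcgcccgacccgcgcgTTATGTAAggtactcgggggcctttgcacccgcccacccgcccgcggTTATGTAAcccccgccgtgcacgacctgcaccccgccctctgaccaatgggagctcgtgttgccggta
Arntl ROR element: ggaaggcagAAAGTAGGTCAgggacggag

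Divided by exon length, so that genes can be set beside each other, the clock genes spanned a wide range of levels. In WT PBS lungs the mean was highest for Tef, at 22.0 CPM per kb of exon, followed by Per1 at 20.3, Per2 at 12.8, Cry1 at 12.0, Per3 at 10.4, Nr1d2 at 10.2, Clock at 6.57, Dbp at 4.01, Arntl at 3.29 and Nr1d1 at 2.95. Only Nr1d2 and Clock did not overlap among neighbours in that order. In WT LPS lungs Per1 led at 50.7 CPM per kb and parted from Tef at 33.1, and Arntl was the lowest at 2.33, parted from Clock at 8.62. Adm+/- LPS lungs had the same genes at both ends, Per1 at 63.1 and Arntl at 2.49 CPM per kb. In the Adm+/- PBS lungs, where no library had high Per1, Per1 stood at 9.70 CPM per kb and overlapped Per2, Cry1 and Per3.

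After LPS, 5 of the 10 clock genes were called higher in WT lungs, namely Nr1d1, Dbp, Nr1d2, Per2 and Tef. In Adm+/- lungs 4 of the 10 were, namely Per1, Nr1d1, Nr1d2 and Per2. A gene was called when edgeR's quasi-likelihood test gave an adjusted p below 0.05 over all tested genes and the log2 fold change was beyond 0.5 in either direction. No clock gene was called lower in either genotype. Of all tested genes, 10.5% were called higher and 7.09% lower in WT, and 12.8% higher and 12.2% lower in Adm+/-. The median log2 fold change of the 10 members was 0.66 in WT and 0.52 in Adm+/-, and that of all tested genes was 0.01 and -0.01. Both comparisons use their own control mice, so that WT and Adm+/- responses come from separate animals.

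**Figure D1:**
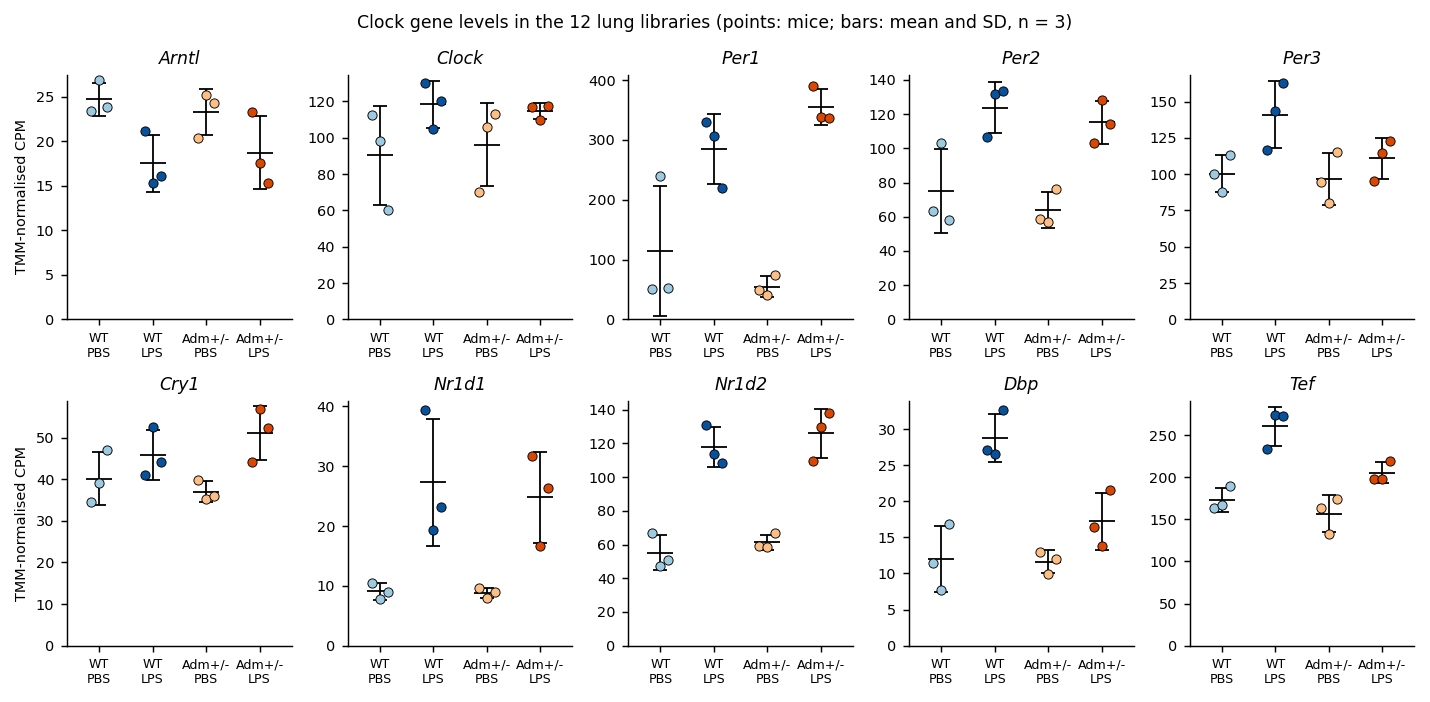
TMM-normalised CPM of each clock gene (vertical axes, linear from 0) in the 4 groups, with 1 point per mouse and a bar at the mean with its SD (n = 3). Nr1d1 and Nr1d2 are parted between PBS and LPS in both genotypes, 1 WT PBS lung carries Per1 at 239.5 CPM beside 50.8 and 52.3 in the other WT PBS lungs, and Arntl is the member with lower means after LPS.

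The genes of the REV-ERB repressors rose in both genotypes. Nr1d1 (ENSMUSG00000020889, chr11:98767932-98775333 in mm10, minus strand) measured 10.6, 7.81 and 8.90 CPM in the WT PBS lungs and 39.4, 19.3 and 23.3 in the WT LPS lungs. In Adm+/- mice it measured 9.63, 7.94 and 8.95 CPM after PBS and 31.6, 16.6 and 26.3 after LPS. Every LPS lung was thus above every PBS lung of its genotype, and the LPS lungs were more spread than the PBS lungs. On the log2 scale, Nr1d1 rose by 1.59 ± 0.28 in WT (SE, adjusted p = 0.00322) and by 1.49 ± 0.28 in Adm+/- (adjusted p = 0.00238). The 3′ end of Nr1d1 overlaps that of Thra, a thyroid hormone receptor gene on the opposite strand, over 263 exon bases, and whether counting used strand is not given in the sources used here. Thra counts were 2731 to 5228 per library, and Thra moved the other way, by -0.56 ± 0.15 (adjusted p = 0.0244) in WT and -0.61 ± 0.15 (adjusted p = 0.0112) in Adm+/-. The WT call of Thra was lost without WT PBS 5 (-0.37), WT LPS 9 or WT LPS 10 (adjusted p = 0.0544, 0.102 and 0.0530).

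Nr1d2 (ENSMUSG00000021775, chr14:18204054-18239127, minus strand) had the smallest adjusted p of the 10 members in both genotypes. Its CPM in WT was 66.9, 47.3 and 51.1 after PBS and 131, 114 and 108 after LPS. In Adm+/- mice the PBS lungs held 58.9, 58.6 and 66.6 CPM and the LPS lungs 109.7, 129.8 and 138. The groups did not overlap, and the rise was 1.09 ± 0.14 in WT (adjusted p = 0.000628) and 1.04 ± 0.14 in Adm+/- (adjusted p = 0.000371) on the log2 scale. The Adm+/- response minus the WT response was -0.09 for Nr1d1 (95% interval -0.95 to 0.77) and -0.06 for Nr1d2 (-0.49 to 0.38), neither of them called.

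Among the Period genes, which encode the repressors that close the loop, Per1 had the largest change. Per1 (ENSMUSG00000020893, chr11:69095217-69109960, plus strand) measured 50.8, 239.5 and 52.3 CPM in the WT PBS lungs and 329.9, 306 and 219 in the WT LPS lungs. The WT PBS 4 lung was above WT LPS 11, so the WT groups overlapped. In Adm+/- mice Per1 stood at 48.6, 41.1 and 74.2 CPM after PBS and at 390.2, 339 and 337 after LPS, with a wide gap between the groups. The log2 fold change was 1.32 ± 0.50 in WT (adjusted p = 0.0801, not called) and 2.70 ± 0.53 in Adm+/- (adjusted p = 0.00279, called).

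The split in the Per1 call between genotypes depended on WT PBS 4 and on the test, since limma-voom called Per1 in WT with all 12 libraries (1.71, adjusted p = 0.0245). The Adm+/- response exceeded the WT response by 1.38 on the log2 scale (95% interval -0.15 to 2.92, adjusted p = 0.701), which was not called. Without WT PBS 4 the WT change was 2.47 with an adjusted p of 0.000278, and the difference between genotypes was 0.23. The count of members called higher in WT was then 6, with Per1 added to the 5 named above, and that in Adm+/- was 4.

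WT PBS 4 also stood high in the glucocorticoid response list, 10 genes that this hormone is known to induce. Its level was the highest of the 3 WT PBS lungs in 8 of the 10 and above all other PBS lungs in 7 of the 10, with a median ratio of 2.13 to the mean of the other WT PBS lungs. Zbtb16, a zinc finger regulator, was at 179.5 CPM in WT PBS 4 and at 13.6 and 18.8 in the other WT PBS lungs. Among the clock genes, the ratio of WT PBS 4 to that mean was 4.65 for Per1, 1.70 for Per2 and 1.14 for Arntl, the 3 members for which it was above all other PBS lungs, and 0.54 for Dbp and 0.80 for both Nr1d1 and Nr1d2. Its summed neutrophil markers, 162.9 CPM, were also above those of the other PBS lungs, at 36.4 to 53.9. The part of these differences in the Per1 level was not tested.

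Per2 (ENSMUSG00000055866, chr1:91415982-91459324, minus strand) measured 63.3, 103 and 58.4 CPM in WT PBS and 107, 132 and 133 in WT LPS. In Adm+/- it measured 59.0, 57.1 and 76.3 CPM after PBS and 103, 128 and 114 after LPS. Each LPS lung was above each PBS lung of its genotype, narrowly so in WT, where WT PBS 4 was again the highest control. Per2 rose by 0.72 ± 0.20 in WT (adjusted p = 0.0279) and by 0.85 ± 0.20 in Adm+/- (adjusted p = 0.00928) on the log2 scale. The WT call was lost without WT PBS 3, WT PBS 5, WT LPS 10 or WT LPS 11, with an adjusted p of 0.0725, 0.0724, 0.0682 and 0.0745, and also when only the 6 WT libraries were fitted (adjusted p = 0.100).

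Per3 (ENSMUSG00000028957, chr4:151003652-151044665, minus strand), which lies inside an intron of Camta1 on the same strand and shares no exon base with it, was not called. Its WT levels were 100.1, 87.9 and 113 CPM after PBS and 117, 144 and 163 after LPS, parted between groups, and the change was 0.49 ± 0.17 (adjusted p = 0.0550). In Adm+/- the levels were 94.6, 80.0 and 115 CPM after PBS and 95.4, 115 and 123 after LPS, which overlapped, and the log2 fold change was 0.20 (adjusted p = 0.395). Camta1, a transcription factor gene expressed from the surrounding locus, was called higher in both genotypes, by 0.73 and 0.59, the latter falling to 0.47 and under the limit without Adm+/- PBS 6. Without WT LPS 9, Per3 in WT was called, at 0.61 (adjusted p = 0.0485), and without WT PBS 5 it was called at 0.58 (adjusted p = 0.0459).

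Cry1 (ENSMUSG00000020038, chr10:85131700-85185064, minus strand), the partner of the Period proteins in repression, changed little in WT. It measured 34.4, 39.02 and 46.9 CPM in WT PBS and 41.05, 52.5 and 44.0 in WT LPS, a log2 difference of 0.19 (adjusted p = 0.350). In Adm+/- it measured 39.9, 35.1 and 36.02 CPM after PBS and 44.1, 56.9 and 52.4 after LPS. The Adm+/- groups did not overlap and the adjusted p was 0.0296, but the log2 fold change of 0.47 ± 0.14 was under the limit of 0.5. It passed that limit without Adm+/- PBS 6, at 0.52 (adjusted p = 0.0433), and without Adm+/- LPS 1, at 0.56 (adjusted p = 0.0255).

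The PAR bZIP genes had higher estimates in WT than in Adm+/- lungs. Dbp (ENSMUSG00000059824, chr7:45705088-45710203, plus strand) measured 11.5, 7.67 and 16.9 CPM in WT PBS and 27.2, 26.6 and 32.7 in WT LPS, and rose by 1.27 ± 0.26 on the log2 scale (adjusted p = 0.00609). In Adm+/- lungs Dbp measured 13.0, 9.93 and 12.0 CPM after PBS and 16.5, 13.8 and 21.6 after LPS, parted, and the log2 change was 0.57 ± 0.25 (adjusted p = 0.111). Dbp shares 539 exon bases with Sphk2 on the opposite strand, and the log2 fold change of Sphk2 was 0.18 in each genotype, with an adjusted p of 0.439 in WT and 0.421 in Adm+/-. Without WT PBS 5, the Adm+/- change of Dbp was called, at 0.58 (adjusted p = 0.0367), although that library is not of the Adm+/- groups and enters their comparison only through the shared fit.

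Tef (ENSMUSG00000022389, chr15:81802421-81826863, plus strand) measured 164, 166 and 189 CPM in WT PBS and 234, 274 and 273 in WT LPS, and rose by 0.59 ± 0.12 (adjusted p = 0.00601). In Adm+/- lungs it measured 164, 132 and 174 CPM after PBS and 198, 198 and 219 after LPS. These groups did not overlap and the adjusted p was 0.0274, but the log2 fold change of 0.39 ± 0.12 was under the limit.

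The activators of the loop were not called. Arntl (ENSMUSG00000055116, chr7:113207465-113314126, plus strand) measured 23.5, 26.9 and 23.8 CPM in WT PBS and 21.2, 15.3 and 16.1 in WT LPS, so that every LPS lung was below every PBS lung. Its log2 fold change in WT was -0.50 ± 0.18 (adjusted p = 0.0632), and without WT LPS 9 it was -0.66 with an adjusted p of 0.0453, which makes it the 1 member called lower there. In Adm+/- lungs Arntl measured 20.4, 25.2 and 24.3 CPM after PBS and 23.3, 17.6 and 15.4 after LPS, which overlapped, and the log2 fold change was -0.32 ± 0.17 (adjusted p = 0.193). It was the member with a negative estimate in both genotypes.

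Clock (ENSMUSG00000029238, chr5:76209868-76304792, minus strand) measured 112, 98.3 and 60.04 CPM in WT PBS and 130.3, 105 and 119.9 in WT LPS, and 69.9, 106 and 113 in Adm+/- PBS against 117, 109.8 and 117 in Adm+/- LPS. The log2 fold change was 0.39 ± 0.22 (adjusted p = 0.218) in WT and 0.25 ± 0.22 (adjusted p = 0.408) in Adm+/-. The lowest Clock level of each PBS group was in WT PBS 5 and Adm+/- PBS 6, the libraries with low protein-coding shares. Without WT PBS 5 the WT value was 0.16, and without Adm+/- PBS 6 the Adm+/- value was 0.06.

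**Figure D2:**
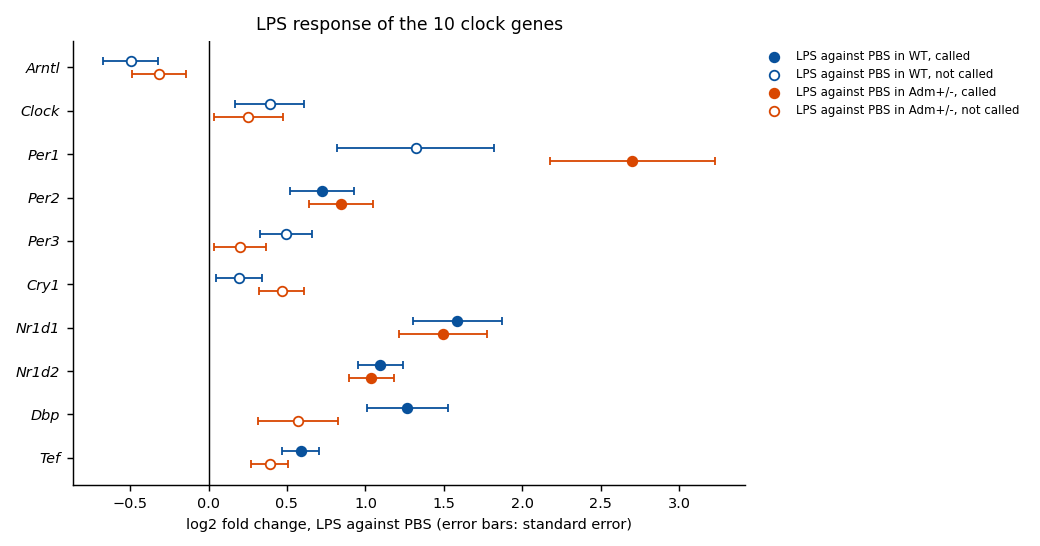
Log2 fold change of each clock gene, LPS against PBS (horizontal axis), in WT (blue) and Adm+/- (orange) lungs, with standard errors as bars and filled points for called changes. Nr1d1 and Nr1d2 sit at nearly the same place in both genotypes, Per1 is further right in Adm+/- with wide bars, Dbp is further right in WT, and Arntl is left of 0 in both.

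Over all 10 members, every LPS lung was above every PBS lung for 6 in WT, where 18.3% of tested genes did the same, and for 7 in Adm+/-, where 26.6% did. The 6 in WT were Per2, Per3, Nr1d1, Nr1d2, Dbp and Tef, and the 7 in Adm+/- were Per1, Per2, Cry1, Nr1d1, Nr1d2, Dbp and Tef. Summed neutrophil markers moved with LPS in both genotypes, from 36.4 to 162.9 CPM in PBS lungs to 1445 to 2528 in WT LPS and 1372 to 1604 in Adm+/- LPS lungs, with 9 of 10 markers called higher in WT and 10 of 10 in Adm+/-. The part of this change in the clock gene levels was not tested.

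The genotype comparisons called no clock gene. The LPS responses of the 10 members differed between genotypes by -0.70 (Dbp) to 1.38 (Per1) on the log2 scale, with adjusted p values from 0.701 to 0.996, and 0 of the 10 had an unadjusted p under 0.05. Over all tested genes 0.145% were called there, and 1247 had an unadjusted p under 0.05. Between the PBS groups, 0 members were called by edgeR and 0 had an unadjusted p under 0.05, with log2 fold changes of Adm+/- against WT from -1.06 to 0.15. The share of all tested genes called there was 0%, with 344 at an unadjusted p under 0.05. The value of -1.06 was that of Per1 and rested on WT PBS 4, without which the direction turned and the value was 0.084 (adjusted p = 0.955).

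Between the LPS groups 2.05% of tested genes were called and none of the members. The members with an unadjusted p under 0.05 were Dbp and Tef, both lower in Adm+/- in all 3 lungs than in any WT lung. That is 2 of 10 members, beside 14.3% of all tested genes (2275) with an unadjusted p under 0.05 there and 12.4% with every Adm+/- lung below every WT lung. The log2 fold change of Adm+/- against WT in LPS was -0.74 ± 0.25 for Dbp (95% interval -1.29 to -0.19, adjusted p = 0.177) and -0.34 ± 0.12 for Tef (95% interval -0.60 to -0.08, adjusted p = 0.183). Per1 was higher in all Adm+/- LPS lungs than in any WT LPS lung, by 0.32 on the log2 scale (95% interval -0.76 to 1.39, adjusted p = 0.894). Arntl, Clock, Per2, Per3, Cry1, Nr1d1 and Nr1d2 overlapped between the LPS groups, so that 3 of 10 members did not, and 24.6% of all tested genes did not overlap in either direction.

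The WT LPS lungs also held more RNA of skeletal muscle marker genes than the other groups. The summed skeletal muscle markers were 265 to 670 CPM in WT PBS, 2149 to 4696 in WT LPS, 144 to 659 in Adm+/- PBS and 346 to 438 in Adm+/- LPS. Of the 13 markers tested, 13 were called higher in WT and 1 in Adm+/-, and Myh4 in WT PBS, Tnnc2 and Pvalb in Adm+/- PBS and Pvalb in Adm+/- LPS were at 0. Within WT LPS the muscle sums of replicates 9, 10 and 11 were 3574, 4696 and 2149 CPM, beside Dbp at 27.2, 26.6 and 32.7 CPM and Tef at 234, 274 and 273. Dbp was highest in the WT LPS lung with the least muscle RNA, and Tef was nearly equal in the lungs with the most and the least. Squamous epithelium markers summed to 20.9 to 2454 CPM in WT LPS, 2.29 to 32.3 in Adm+/- LPS and at most 2.06 in the PBS lungs. The part of these tissues in the Dbp and Tef levels was not tested.

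Other genes of the loop, taken as a list of 11, mostly did not pass the test. In WT 1 of 11 rose, Bhlhe40, and in Adm+/- 3 rose, Bhlhe40, Nfil3 and Cry2, with none lower in either. Over all tested genes 10.5% were called higher in WT and 12.8% in Adm+/-, so the WT count is near the share of all genes. Bhlhe40, an E-box repressor of the loop, measured 23.9, 32.2 and 28.2 CPM in WT PBS and 71.2, 45.3 and 48.3 in WT LPS, and 26.3, 23.9 and 22.5 in Adm+/- PBS against 78.05, 89.8 and 75.5 in Adm+/- LPS. It rose by 0.97 ± 0.17 in WT (adjusted p = 0.00323) and by 1.74 ± 0.18 in Adm+/- (adjusted p = 8.02e-05), and the difference between genotypes, 0.78, had an adjusted p of 0.411. Between the LPS groups Bhlhe40 was 0.56 higher in Adm+/- (adjusted p = 0.122), and without WT LPS 9 this was 0.80 and called (adjusted p = 0.0213), as it was by DESeq2 with all libraries (0.57, adjusted p = 0.0448). Nfil3, the repressor that competes with Dbp and Tef for D-boxes, rose by 1.30 ± 0.27 in Adm+/- (adjusted p = 0.00412) and stood at 0.39 ± 0.27 in WT (adjusted p = 0.315; 0.66 and called without WT LPS 11, adjusted p = 0.0468). Its LPS levels were 42.5, 39.4 and 19.4 CPM in WT and 60.02, 70.8 and 48.7 in Adm+/-, which did not overlap, and the log2 fold change of Adm+/- against WT was 0.83 (adjusted p = 0.149; 0.0474 with DESeq2). Cry2, the paralog of Cry1, rose by 0.79 ± 0.12 in Adm+/- (adjusted p = 0.000722) and stood at 0.35 ± 0.12 in WT (adjusted p = 0.0619).

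Further genes of the loop list had no change called by edgeR with all 12 libraries. Npas2, which can stand in for Clock, was at -0.54 in WT (adjusted p = 0.128), and without WT LPS 9 it was called lower, at -0.91 (adjusted p = 0.0159). Bhlhe41, a repressor of the same family as Bhlhe40, was at 0.38 in WT (adjusted p = 0.180). Between the LPS groups Bhlhe41 measured 7.89, 10.9 and 13.8 CPM in WT and 6.96, 6.28 and 7.55 CPM in Adm+/-, each Adm+/- lung below each WT lung. That difference was -0.64 ± 0.19 (adjusted p = 0.120, not called), and it was called by DESeq2 (adjusted p = 0.0442) and by edgeR without WT LPS 9 (-0.82, adjusted p = 0.0298). Arntl2 was at -0.53 in Adm+/- (adjusted p = 0.0880). The median log2 fold change of the list was 0.18 in WT and 0.04 in Adm+/-.

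Kinases, ubiquitin ligases and corepressors that act on clock proteins, formed a list of 13. In WT 1 of 13 fell, Timeless, by 1.07 ± 0.26 on the log2 scale (adjusted p = 0.0147), a call lost without WT LPS 9 (adjusted p = 0.0716). As 7.09% of all tested genes were called lower in WT, this count is near the share of all genes. In Adm+/- 12.8% of all tested genes were called higher and 12.2% lower. Timeless is also a replication fork gene, and it was at -0.48 in Adm+/- (adjusted p = 0.177), where 0 of 13 were called by edgeR. There 5 of 13 had an unadjusted p under 0.05, near the 41.8% of all tested genes that did. Nono, an RNA-binding cofactor of the PER complex, was at -0.49 ± 0.09 in WT (adjusted p = 0.00307) and -0.47 ± 0.09 in Adm+/- (adjusted p = 0.00211), just under the fold limit in both with all 12 libraries. It was called lower in WT without WT PBS 3 (-0.53, adjusted p = 0.00651), WT PBS 4 (-0.51, adjusted p = 0.00792) or WT LPS 10 (-0.52, adjusted p = 0.00747), and in Adm+/- without Adm+/- PBS 7 (-0.51, adjusted p = 0.00606) or Adm+/- LPS 2 (-0.53, adjusted p = 0.00462). Testing all annotated genes also called Nono in WT (-0.52, adjusted p = 0.00609). The casein kinase gene Csnk1e was at -0.34 (adjusted p = 0.0262) and -0.29 (adjusted p = 0.0339), and the corepressor gene Hdac3 at -0.27 (adjusted p = 0.0531) and -0.28 (adjusted p = 0.0355), both below the limit.

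Genes known as rhythmic outputs formed a list of 9. In WT 6 of 9 rose (Cdkn1a, Nampt, Usp2, Por, Alas1 and Tspan4) and Lonrf3 fell, and in Adm+/- the same genes other than Usp2 did so. The shares of all tested genes were 10.5% higher and 7.09% lower in WT, and 12.8% and 12.2% in Adm+/-. A single lower gene of 9 is near those shares. Cdkn1a, a cell cycle inhibitor gene, rose by 1.64 ± 0.22 in WT (adjusted p = 0.000641) and by 2.18 ± 0.22 in Adm+/- (adjusted p = 7.9e-05). Por, the electron donor of cytochrome P450 enzymes, rose by 0.70 (adjusted p = 0.00675) and 1.13 (adjusted p = 0.000250), and Alas1, the first enzyme of heme synthesis, by 0.59 (adjusted p = 0.00304) and 0.75 (adjusted p = 0.000413). Tspan4 rose by 0.59 in WT (adjusted p = 0.0131) and 1.27 in Adm+/- (adjusted p = 0.000115). Lonrf3 fell by 0.66 in WT (adjusted p = 0.0271) and by 0.73 in Adm+/- (adjusted p = 0.0119). The WT call of Lonrf3 was lost without WT PBS 4, WT PBS 5 or WT LPS 9 (adjusted p = 0.0612, 0.0539 and 0.104) and the Adm+/- call without Adm+/- LPS 1 (adjusted p = 0.0515), that of Nampt in WT without WT PBS 5, WT LPS 9 or WT LPS 10 (0.0741, 0.132 and 0.0512), and that of Tspan4 in WT fell under the fold limit without WT PBS 3 (0.46) or WT LPS 10 (0.47).

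Usp2 and Ppara were the listed genes that were called between the LPS groups, both lower in Adm+/-. Usp2, a deubiquitinase gene whose rhythm is well known, measured 16.6, 23.0 and 16.7 CPM in WT LPS and 9.84, 10.6 and 11.7 in Adm+/- LPS, a log2 fold change of -0.81 ± 0.17 (adjusted p = 0.0312). The difference of its LPS responses was -0.44 (adjusted p = 0.736). The WT LPS lung with the highest Usp2, replicate 10, was also the one with the most skeletal muscle RNA, and without it the value was -0.64; the call was lost without WT LPS 10, WT LPS 11, Adm+/- PBS 7 or any of the 3 Adm+/- LPS libraries, with adjusted p up to 0.148. Ppara, a nuclear receptor of fatty acid metabolism, measured 6.13, 6.49 and 6.45 CPM in WT LPS and 3.63, 3.73 and 3.10 in Adm+/- LPS, a log2 fold change of -0.87 ± 0.19 (adjusted p = 0.0400). That call was lost when any of 10 libraries was left out, with adjusted p up to 0.162. The LPS change of Ppara in Adm+/- was -0.54 (adjusted p = 0.0513, not called). It was called lower without WT PBS 4 (adjusted p = 0.028) or WT PBS 5 (adjusted p = 0.020), neither of them a library of the Adm+/- groups.

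**Figure D3:**
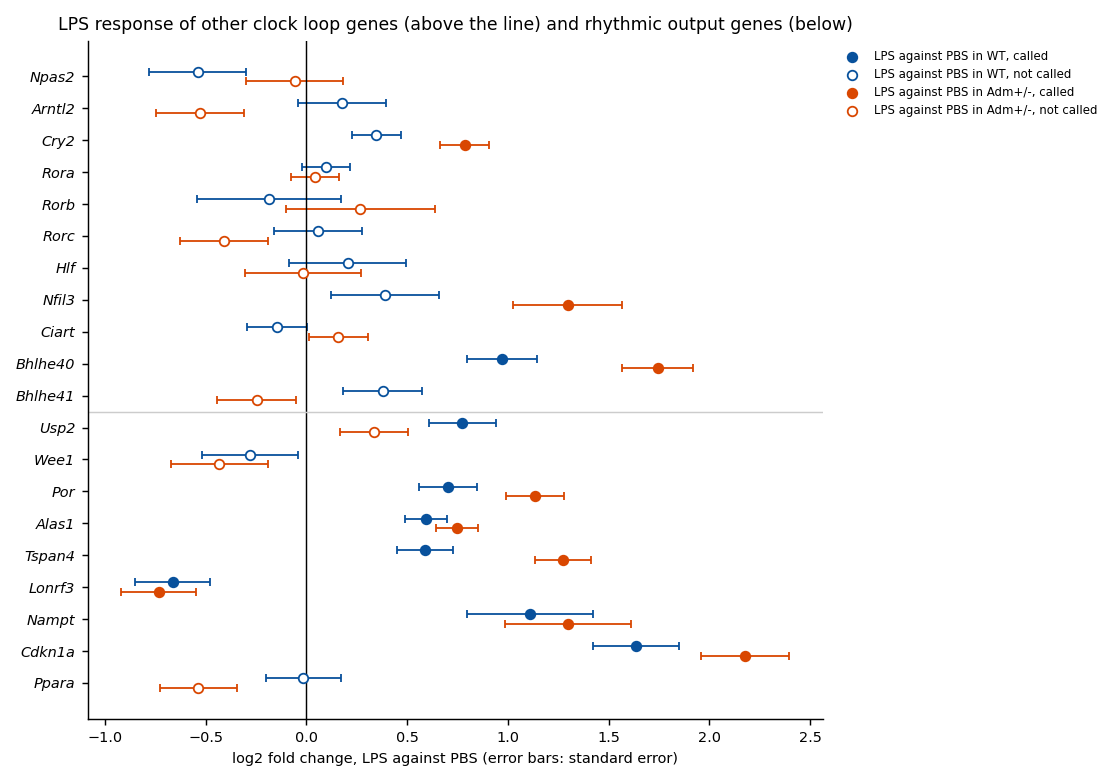
Log2 fold change, LPS against PBS (horizontal axis), of 11 other loop genes above the line and 9 rhythmic output genes below it, in WT (blue) and Adm+/- (orange), with standard errors as bars and filled points for called changes. Bhlhe40 is called in both genotypes and Nfil3 and Cry2 in Adm+/-, while among the outputs Usp2 is called in WT and Lonrf3 is left of 0 in both.

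Of the glucocorticoid response list, 7 of 10 genes rose with LPS in WT, the others being Sgk1 at 0.39 (adjusted p = 0.0569), Ddit4 at 0.89 (adjusted p = 0.0565) and Cebpd at 1.36 (adjusted p = 0.0893). In Adm+/- 9 of 10 rose, the exception being Sgk1 at 0.36 (adjusted p = 0.0601). Among all tested genes 10.5% were called higher in WT and 12.8% in Adm+/-. Fkbp5, a chaperone of the receptor, rose by 2.78 ± 0.31 in WT (adjusted p = 0.000259) and 3.52 ± 0.32 in Adm+/- (adjusted p = 6.4e-05). Pdk4, a kinase that holds back glucose oxidation, rose by 2.43 (adjusted p = 0.00471) and 3.79 (adjusted p = 0.000286), and Tsc22d3, which encodes GILZ, by 1.74 (adjusted p = 0.00189) and 2.18 (adjusted p = 0.000286). Klf9, a zinc finger gene, rose by 1.51 ± 0.33 in WT (adjusted p = 0.00937) and by 2.43 ± 0.35 in Adm+/- (adjusted p = 0.000441), and without WT PBS 4, at 96.0 CPM beside 37.6 and 33.98 in the other WT PBS lungs, the WT rise of Klf9 was 2.15. Cebpd, a transcription factor gene, was at 135.7 CPM in WT PBS 4 and at 27.8 and 45.3 in the other WT PBS lungs, and without WT PBS 4 its WT rise was 2.29 and called (adjusted p = 0.00793). Without WT LPS 11, Cebpd (1.73, adjusted p = 0.0340) and Ddit4 (1.15, adjusted p = 0.0156) were both called. Ddit4 was also called in WT by DESeq2 with all libraries (0.89, adjusted p = 0.0207). Without WT PBS 4 the counts stayed at 7 and 9, with Cebpd in place of Dusp1 (0.87, adjusted p = 0.0538) in WT. Without WT LPS 9 the WT count was 4, where 6.25% of all tested genes were called higher. The calls of Zbtb16, Dusp1 and Errfi1 were lost there (adjusted p = 0.0818, 0.114 and 0.152). All 3 calls were also lost without WT LPS 10 (0.0534, 0.0508 and 0.0591), those of Zbtb16 and Errfi1 without WT PBS 5 (0.0544 and 0.0871), and that of Errfi1 without WT PBS 3 (0.0839). Many of these genes also respond to inflammatory signals.

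WT LPS 11, the WT LPS lung with the lowest Per1, had the lowest level of all 10 genes of the glucocorticoid list among the 3 WT LPS lungs, and WT LPS 9, with the highest Per1, had the highest level of 9 of them. The Adm+/- LPS lungs showed less spread in Per1, and there replicate 1, with the highest Per1, was highest in 6 of the 10. In Adm+/- PBS the order did not follow Per1, since replicate 8, with the highest Per1 (74.2 CPM), was highest in 4 and lowest in 3 of the 10 and replicate 6 was highest in 5. These orders are a description of 3 lungs per group.

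**Figure D4:**
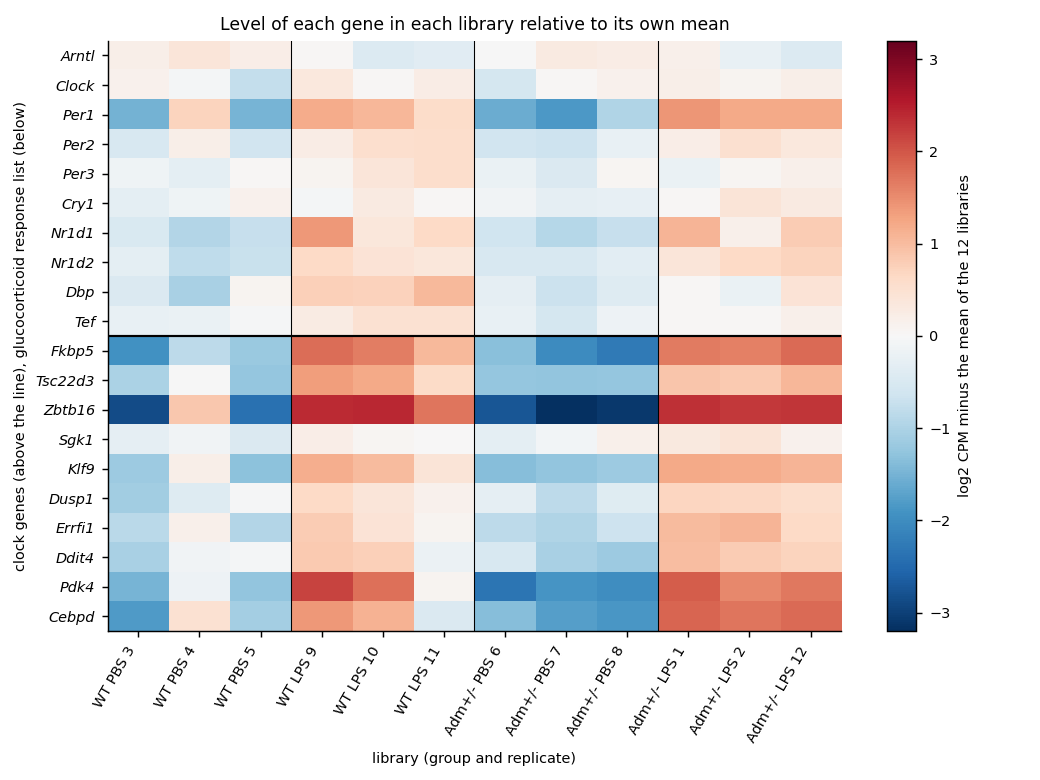
Log2 CPM of each gene minus its mean over the 12 libraries (colour, red above and blue below the mean) for the clock genes above the line and the glucocorticoid response list below it, with libraries in columns by group. WT PBS 4 is red in Per1, Per2, Zbtb16, Klf9, Errfi1 and Cebpd where the other PBS lungs are blue, and the Arntl row runs against the other clock genes.

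Within each LPS group, 1 lung held the highest or lowest level of several members. In each genotype the LPS lung with the highest Arntl, WT LPS 9 at 21.2 CPM and Adm+/- LPS 1 at 23.3 CPM, had the highest Nr1d1 (39.4 and 31.6 CPM) and the highest Per1 of its group. The same lungs had the lowest Per2 (107 and 103 CPM), Per3 (117 and 95.4 CPM) and Cry1 (41.05 and 44.1 CPM) of their groups. Nr1d2 went opposite ways in these lungs, highest in WT LPS 9 (131 CPM) and lowest in Adm+/- LPS 1 (109.7 CPM), Dbp was in the middle in both, and Tef was lowest in WT LPS 9 but not in Adm+/- LPS 1. These lungs also had the highest summed squamous epithelium markers of their groups, 2454 CPM in WT LPS 9 (20.9 and 1308 in the others) and 32.3 CPM in Adm+/- LPS 1 (7.77 and 2.29), and the highest liver markers, 55.3 and 19.7 CPM. Neutrophil markers were highest in WT LPS 9 (2528 CPM beside 1445 and 1603) and lowest in Adm+/- LPS 1 (1372 beside 1415 and 1604). The part of these markers in the order was not tested. In the PBS groups, Adm+/- PBS 7, with the highest Arntl of its group, also had the lowest Per2, Per3 and Cry1, but it had the lowest Nr1d1 and Per1 as well, and WT PBS 4, with the highest Arntl of its group, had the highest Per2. The order in the LPS groups was noticed after the values were seen, rests on 1 lung per group and was not tested, and the clock time of each lung is not given in the sources used here.

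Likeness of pattern was measured as the root mean square difference of standardised log2 CPM over the 12 libraries, where 0 is an identical pattern. Among the members, Per1 and Per2 were nearest to each other at 0.337, then Nr1d1 and Nr1d2 at 0.413 and Dbp and Tef at 0.413, and Per3 was nearest to Tef at 0.418. Cry1 was nearest to Per2 at 0.798 and Clock to Nr1d2 at 0.806. Arntl was the farthest member from every other. Clock was the nearest to it, at 1.51, but the patterns of Arntl and Clock tended to run in opposite directions. The 12 points share the split between PBS and LPS, in which most of these genes differ.

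Beyond the members, 14590 tested genes with a mean of at least 1 CPM were compared by the same measure. The 4 genes nearest to Per1 were Slc10a6 (0.124), AA986860 (0.161), Zhx3 (0.165) and Klf9 (0.171), the last of which belongs to the glucocorticoid list. Those nearest to Nr1d1 were Plin2 (0.189), Reln (0.190), Lpar3 (0.222) and Acp5 (0.231). Those nearest to Arntl were Samd12 (0.468), Atl1 (0.469), Pcdhb11 (0.502) and Hpca (0.512), so that no gene came as near to Arntl as the listed genes came to Per1 or Nr1d1.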

How the data were processed

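Bulk RNA sequencing of 12 whole lungs, 3 per group, was analysed. Per the labels and the study's methods, the authors made directional, rRNA-depleted libraries, trimmed reads with Trim Galore, aligned them to mm10 with HISAT2 and counted them per Gencode gene with featureCounts; the deposited values are raw counts per gene. The Gencode release and the strand setting are not given in the sources used here. Directional libraries separate overlapping genes on opposite strands if the strand was used in counting.

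From these counts, protein-coding genes past edgeR's filterByExpr were scaled by TMM and fitted with 1 coefficient per group and 8 residual degrees of freedom (edgeR 4.0.16, glmQLFit and glmQLFTest, R 4.3.3; Benjamini-Hochberg adjustment over 15885 genes). The study used limma; limma-voom (3.58.1), DESeq2 (1.42.0) and other settings were alternatives. CPM values are TMM-normalised, errors of group means are SDs and those of fold changes are SEs, and log2 CPM used a prior count of 2. Intervals of differences are 95% intervals of the same fit. The script was tested on simulated data. Gene positions and exon lengths came from Gencode M21, which held 99.7% of the table's genes.

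The members, the gene lists and the markers were chosen with earlier results of these data known. With the exception of 1 gene, which is not reported here, the text names all members, Adm, genes overlapping a member, from each list the 4 genes of smallest p in either LPS comparison and any gene called elsewhere, and the 4 genes nearest in pattern to Arntl, Nr1d1 and Per1; Zbtb16, Dusp1, Errfi1, Sgk1, Ddit4, Cebpd, Nampt and Lonrf3 were added after their values were seen. Labels number the libraries serially over the whole series and name the genotype and treatment of each. Each library was taken as 1 mouse, with litter and sex not used here. Within groups, counts of no 2 libraries agreed within sampling noise (over 12 pairs, chi-square divided by its degrees of freedom was 9.92 to 112).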

Additional observations from a re-analysis of the deposited data

How the results depend on the processing

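The 5 members called higher in WT and the 4 in Adm+/- stayed at 5 and 4 with DESeq2 size factors or DESeq2 itself, and limma-voom gave 6 and 4, with Per1 in WT added (1.71, adjusted p = 0.0245). Testing against a log2 fold change of 0.5 (glmTreat) left 3 in WT, without Per2 (adjusted p = 0.334) and Tef (adjusted p = 0.476), and ended the Adm+/- call of Per2 (adjusted p = 0.120). Leaving out each library in turn gave 4 to 6 members higher in WT, 4 to 5 higher in Adm+/- and 0 to 1 lower in WT. Over the same settings the share of all tested genes called was 6.25% (without WT LPS 9) to 10.5% higher and 2.75% to 8.99% lower in WT, and 10.4% to 14.1% higher in Adm+/-. It was 12.1% higher in WT and 13.96% in Adm+/- with DESeq2, and 5.07% and 6.90% with glmTreat. Without both libraries of low protein-coding share, Per2 was no longer called in WT (0.57, adjusted p = 0.0721) and Per3 was (0.58, adjusted p = 0.0493), and Cry1 (adjusted p = 0.0132) and Dbp (adjusted p = 0.0449) were called in Adm+/-. The same setting ended the WT calls of Lonrf3, Thra, Zbtb16 and Errfi1 and the Adm+/- call of Camta1, and it added a WT call of Ddit4 (adjusted p = 0.0447). DESeq2 gave Zbtb16 no adjusted p. In the fit of 6 libraries Dbp was called in Adm+/- (adjusted p = 0.0345). Among the other named genes, the 6-library fit ended the WT calls of Usp2, Por, Tspan4, Lonrf3, Nampt, Klf9, Timeless, Thra, Zbtb16, Dusp1 and Errfi1 (adjusted p = 0.0511 to 0.119) and the call of Usp2 between the LPS groups (0.0566). Testing against 0.5 ended the WT calls of Usp2, Por, Alas1, Tspan4, Lonrf3, Nampt, Timeless, Thra, Camta1, Zbtb16, Dusp1 and Errfi1 (adjusted p = 0.0719 to 0.663), the Adm+/- calls of Lonrf3, Thra and Camta1 (0.214 to 0.427) and the calls of Usp2 (0.397) and Ppara (0.363) between the LPS groups, and testing all annotated genes also ended that of Ppara (0.0612). No direction turned among these genes. The cause of these changes was not tested.

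No paired analysis was made, because the labels used here give no pairing of mice between groups. The direction of some genotype differences turned when 1 library was left out. The Adm+/- against WT difference in PBS ran from -1.42 to 0.0837 for Per1. That in LPS ran from -0.0892 to 0.26 for Arntl, -0.12 to 0.0354 for Clock and -0.35 to 0.23 for Nr1d1. The difference of the LPS responses ran from -0.00522 to 0.35 for Arntl, -0.32 to 0.0933 for Clock, -0.30 to 0.28 for Nr1d1, -0.22 to 0.0430 for Nr1d2 and -0.18 to 0.28 for Per2. With 3 mice per group, the 95% interval of the difference in response was narrowest for Tef, from -0.56 to 0.17, and widest for Per1. Arntl and Dbp lie on the chromosome of Adm, and the part of strain in their genotype differences was not tested.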
